A study of Homo sapiens with 30 samples.

Results

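Transcripts of 10 regulators of the BCL2 family were measured in HepG2 cells treated with Sorafenib, a multikinase inhibitor used against advanced liver cancer. The genes were MCL1, BCL2L1, BAX, BAK1, BCL2L11, BBC3, PMAIP1, BID, BAD and BIK. They were chosen by symbol, each symbol matched a single row, and they made up 10 of the 60107 gene rows of the count table. HepG2 is a human liver cancer line, described as hepatocellular carcinoma in the sample labels and as hepatoblastoma in the methods of the study. The study asked how 3 microRNAs that respond to Sorafenib act on the mRNA of these cells. Cells were transfected with an inhibitor control (IC) or a miR-200c-3p inhibitor (I-miR-200c-3p), or with a mimic control (MC), a miR-222-5p mimic (M-miR-222-5p) or a miR-512-3p mimic (M-miR-512-3p). At 24 h after transfection, cultures received 10 µM Sorafenib or the vehicle DMSO. The inhibitor arms were lysed 6 h later and the mimic arms 24 h later. Each of the 10 groups held 3 biological replicates, which gave 30 libraries. All groups carried a transfected oligonucleotide, all came from 1 cell line, and the 2 mimics were compared with the same MC libraries. Time went with the kind of oligonucleotide, so the effects of the 2 cannot be told apart.

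The BCL2 family sets the threshold for mitochondrial apoptosis through binding between its members. The survival proteins MCL1 and BCL-xL, the latter encoded by BCL2L1, hold back the effectors BAX and BAK, which otherwise open pores in the outer mitochondrial membrane and release cytochrome c. The BH3-only proteins BIM (BCL2L11), PUMA (BBC3), NOXA (PMAIP1), BID, BAD and BIK carry death signals by occupying the survival proteins, and some of them also activate BAX and BAK directly. Much of this control acts on proteins, by phosphorylation, cleavage or degradation, which mRNA counts do not show. In hepatocytes and liver cancer cells, MCL1 and BCL-xL are the survival proteins best known to be required.

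A microRNA pairs with target messages through its seed, bases 2 to 8 of the mature strand. The mature sequences of the 3 microRNAs are shown because they define the transfected arms. They were taken from RefSeq (GRCh38.p14), with the seed in capitals.
miR-200c-3p: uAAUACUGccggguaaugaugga
miR-222-5p: cUCAGUAGccaguguagauccu
miR-512-3p: aAGUGCUGucauagcugagguc
No seed was shared between them. miR-200c-3p lies at chr12:6963742-6963764 (plus strand), miR-222-5p at chrX:45747073-45747094 (minus strand), and miR-512-3p is encoded at 2 loci, the first at chr19:53666729-53666750 (plus strand). Perfect 7-base seed matches were searched on the sense strand of the 3′ UTR of each gene's MANE Select transcript (GENCODE 44, GRCh38). Of the 10 members, 1 held the match for miR-200c-3p (CAGTATT, found in 16.38% of 18780 genes), 1 that for miR-222-5p (CTACTGA, 9.34%) and 0 that for miR-512-3p (CAGCACT, 19.87%). Both matches are shown with the bases around them, the match in capitals, since these were the members that held one. Shorter matches, other transcripts and sites outside the 3′ UTR were not searched.
PMAIP1 with the miR-200c-3p match: cacatctgttttcttCAGTATTa
MCL1 with the miR-222-5p match: ctcagagtttaaaagCTACTGAt
The PMAIP1 window spans chr18:59904128-59904150 on the plus strand and the MCL1 window chr1:150575403-150575425 on the minus strand. A match is a description of the letters and does not show that the site is used.

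Libraries were made by 3′ tag sequencing, which reads 1 fragment near the poly(A) end of each transcript, so levels of different genes were compared without division by length. Levels are given as CPM, a library's counts scaled to a common total, after TMM scaling over the 30 libraries. The libraries held between 3938764 and 9657063 gene counts. The most a count of 0 allows, 3 counts, was worth 0.311 to 0.762 CPM, which covers counting error only. Of the 8 hepatic markers, 8 were present, with a summed level between 7086 and 16916 CPM. The 8 markers of fibroblasts, endothelium and leukocytes summed to between 1.42 and 20.6 CPM. Of these, CD3E and COL1A2 were at 0 and PTPRC at 1 count or less in every library. CD68 reached 90 counts (11.1 CPM, median 4.33) and COL1A1 77 counts (11.6 CPM, median 2.38). PDGFRB reached 48 counts, PECAM1 20 and CDH5 5. At 24 h, 5 of the 8 hepatic markers fell with Sorafenib (for example APOB, -1.06 ± 0.15, and TTR, -0.62 ± 0.15, as log2 fold change ± SE). Their summed level spanned 10893 to 16916 CPM with DMSO and 7086 to 10854 CPM with Sorafenib at that time, and the part of this shift in the results below was not tested. Since only bulk RNA was measured, fewer cells with a transcript and less of it per cell cannot be told apart.

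MCL1, BCL2L1 and BBC3 were the most abundant members (the plot of levels by library). By group mean both survival genes stood above BBC3 in the DMSO groups and in the Sorafenib groups of 6 h, and BBC3 stood above both in the 3 Sorafenib groups of 24 h. Over all 30 libraries BCL2L1 ranged from 123 to 326 CPM, MCL1 from 125 to 407 CPM and BBC3 from 56.6 to 429.7 CPM. BID, BCL2L11, BAX and BAK1 formed a middle tier, at 21.5 to 56.2 CPM, 7.41 to 57.7 CPM, 7.52 to 39.8 CPM and 11.6 to 37.5 CPM. PMAIP1, BAD and BIK were low. PMAIP1 rested on 4 to 82 counts per library, BAD on 3 to 62 and BIK on 0 to 31, with BIK at 0 in 4 libraries. All 10 members passed the filter on low counts at both times.

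**Figure D1:**
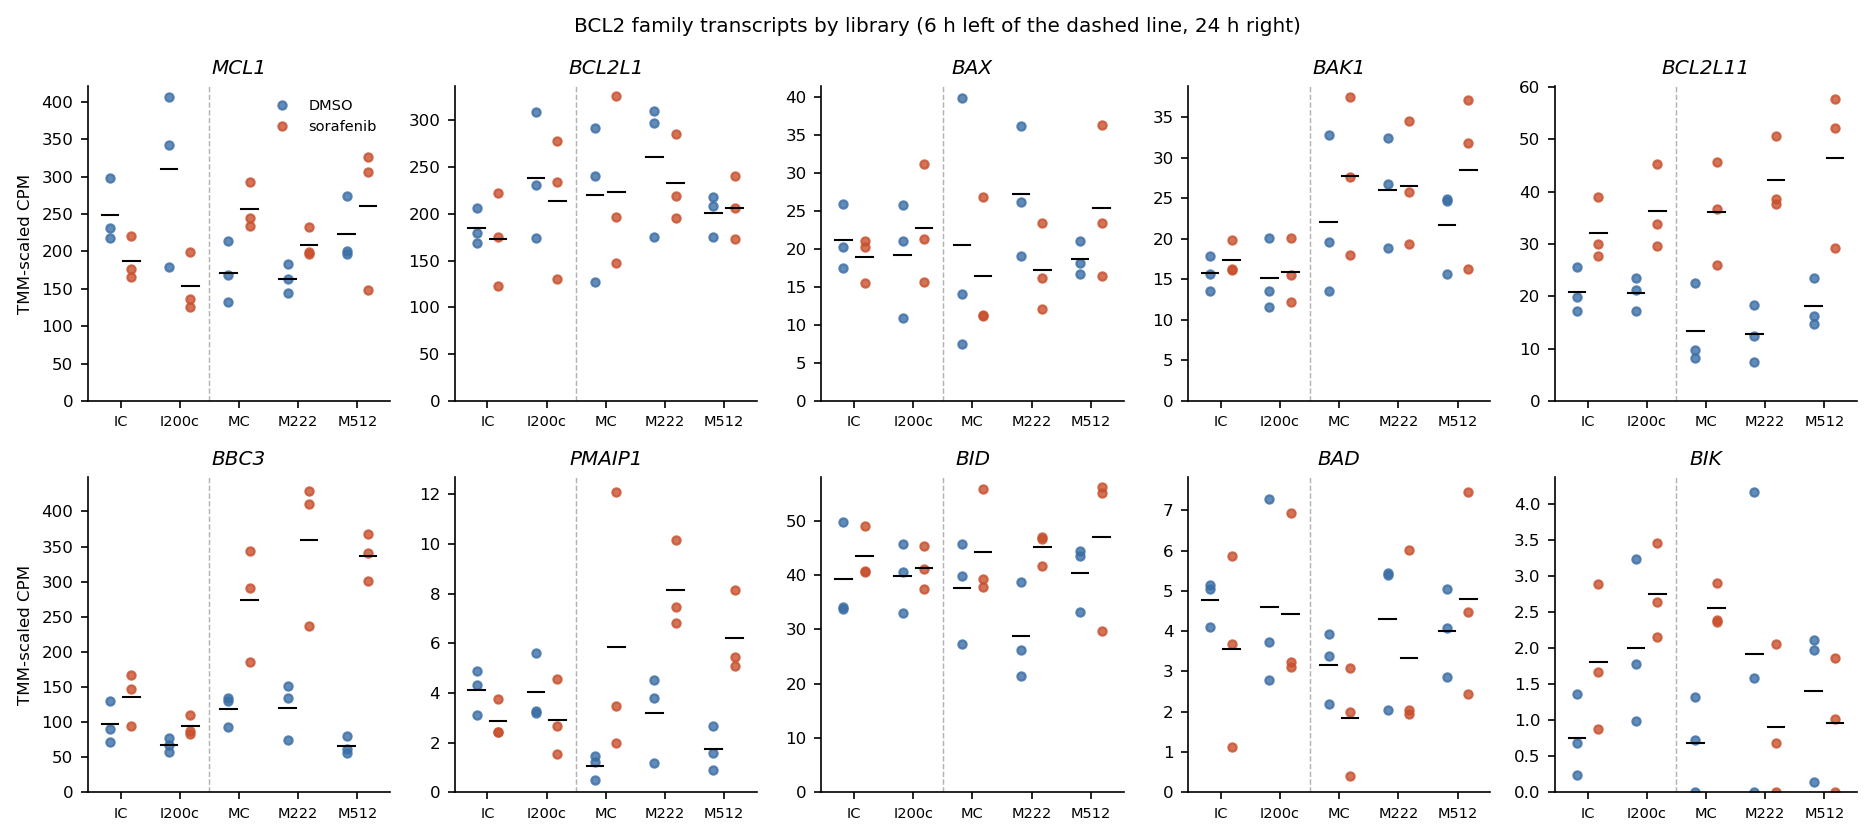
Levels of the 10 members in TMM-scaled CPM (vertical axis, linear, from 0) in each transfection (horizontal axis, where I200c, M222 and M512 stand for I-miR-200c-3p, M-miR-222-5p and M-miR-512-3p), with 1 point per library, DMSO in blue and Sorafenib in orange, and black lines at the means of 3. BCL2L11 with Sorafenib lies above DMSO in all 5 transfections without overlap, and BBC3 and PMAIP1 do so in the 3 transfections at 24 h. In single transfections, between 6.63% (IC) and 14.6% (M512) of all genes tested did so.

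At 24 h, Sorafenib up-regulated 3 of the 6 BH3-only genes, while the effectors did not pass the test. PMAIP1 rose 3.69-fold, BBC3 3.24-fold and BCL2L11 2.85-fold, averaged over MC, M-miR-222-5p and M-miR-512-3p. MCL1 rose 1.30-fold, a call that stood just within the threshold. In all, 4 of 10 members were higher and 0 were lower at an adjusted p below 0.05 (edgeR quasi-likelihood F test, 9 libraries against 9, adjusted over 13244 genes). Of all genes tested in this comparison, 13.4% were higher, 12.4% were lower and 25.8% were called in either direction. The median log2 fold change was 0.30 over the 10 members and 0.94 over the 6 BH3-only genes, against -0.04 over all genes.

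At 6 h the picture was smaller and partly different. BCL2L11 rose 1.63-fold and MCL1 fell to 0.609 of its DMSO level, averaged over IC and I-miR-200c-3p. These were the 2 members called of 10 (edgeR, 6 libraries against 6, 12738 genes), 1 higher and 1 lower, where 2.89% of all genes were called, 1.15% higher and 1.73% lower. The median over the members was 0.06, and over all genes 0.01, on the log2 scale.

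**Figure D2:**
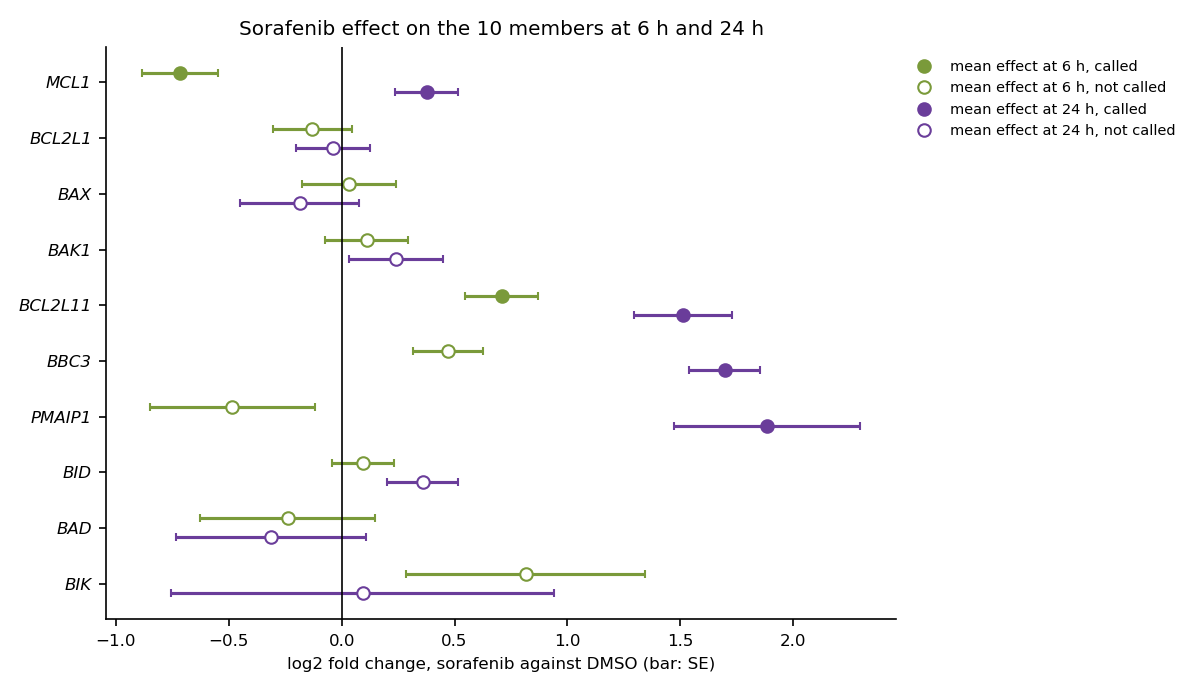
Mean Sorafenib effect on each member as a log2 fold change (horizontal axis) at 6 h (green, 6 libraries against 6) and 24 h (purple, 9 against 9), with bars of ± 1 SE; filled points had an adjusted p below 0.05. BCL2L11, BBC3 and PMAIP1 lie between 1.51 and 1.88 at 24 h, and MCL1 lies at -0.72 at 6 h and at 0.38 at 24 h.

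Among the survival genes, MCL1 (ENSG00000143384, chr1:150560895-150579738, minus strand) encodes a short-lived protein that binds BIM, NOXA and BAK. At 6 h, MCL1 in IC stood at 218, 231 and 298 CPM with DMSO and 166, 220.0 and 177 CPM with Sorafenib. With I-miR-200c-3p the values were 343, 179.6 and 407 CPM with DMSO and 136, 125 and 199 CPM with Sorafenib. Sorafenib libraries were the lower ones in both arms, although the ranges overlapped by 1 library in each. The fall averaged a log2 fold change of -0.72 ± 0.17, adjusted p = 0.0198. Within single arms it passed the test with I-miR-200c-3p (log2 fold change -1.02 ± 0.24, adjusted p = 0.024) and not in IC (log2 fold change -0.42 ± 0.24, adjusted p = 0.999), and the difference between these arms was -0.60 ± 0.33 (adjusted p = 1). The mean 6 h call was lost on leaving out any 1 of 7 libraries: IC with DMSO replicate 3, IC with Sorafenib replicates 1 and 3, I-miR-200c-3p with DMSO replicates 1 and 3, or I-miR-200c-3p with Sorafenib replicates 1 and 2. The values then ranged from -0.84 to -0.59 over the 12 omissions, with adjusted p up to 0.072. The I-miR-200c-3p call was lost without each of the same 4 I-miR-200c-3p libraries (adjusted p up to 0.138), and with only the 6 libraries of that arm (-1.02, adjusted p = 0.0808).

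At 24 h the order of the MCL1 values was the opposite. In MC they were 214, 168 and 132 CPM with DMSO and 234, 244 and 293 CPM with Sorafenib. With M-miR-222-5p they were 184, 163 and 144 CPM with DMSO and 232, 199 and 196 CPM with Sorafenib. With M-miR-512-3p they were 200.4, 196 and 275 CPM with DMSO and 326, 149 and 306 CPM with Sorafenib. Sorafenib exceeded DMSO without overlap in MC and M-miR-222-5p and overlapped it with M-miR-512-3p. Among all genes tested, 13.1% were higher without overlap in MC and 13.7% with M-miR-222-5p. The mean effect was a log2 fold change of 0.38 ± 0.14, adjusted p = 0.0491, and none of the 3 arms passed the test alone (adjusted p between 0.208 and 0.683). This call depended on the scaling: it was 0.37, adjusted p = 0.0529 with RLE factors and 0.25, adjusted p = 0.214 on total counts. It was also lost on leaving out any 1 of 9 of the 18 libraries: MC with DMSO replicate 2 or 3, MC with Sorafenib replicate 3, M-miR-222-5p with DMSO replicate 3, M-miR-222-5p with Sorafenib replicate 1, M-miR-512-3p with DMSO replicate 1 or 2, or M-miR-512-3p with Sorafenib replicate 1 or 3 (adjusted p up to 0.111).

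BCL2L1 (ENSG00000171552, chr20:31664452-31723989, minus strand) encodes BCL-xL from its long splice form and a death-promoting protein from a shorter one, which 3′ tags do not separate. Its values with DMSO spanned 168 to 308 CPM (median 193) at 6 h and 127 to 310.1 CPM (median 218) at 24 h. With Sorafenib they spanned 123 to 278 CPM (median 198) and 147 to 326 CPM (median 206). The groups overlapped in all 5 arms. The mean effect was -0.13 ± 0.17 at 6 h (adjusted p = 0.781) and -0.04 ± 0.16 at 24 h (adjusted p = 0.884). Single-arm effects ran from -0.17 ± 0.28 with M-miR-222-5p to 0.03 ± 0.28 in MC.

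The effectors did not pass the test in any arm. BAX (ENSG00000087088, chr19:48954815-48961798, plus strand) and BAK1 (ENSG00000030110, chr6:33572547-33580293, minus strand) encode the pore-forming proteins. BAX spanned 7.52 to 39.8 CPM (median 19.0) with DMSO and 11.2 to 36.3 CPM (median 16.4) with Sorafenib at 24 h. BAK1 spanned 13.6 to 32.8 CPM (median 24.6) and 16.3 to 37.5 CPM (median 27.6) in the same libraries. The mean log2 effect at 24 h was -0.19 ± 0.26 for BAX (adjusted p = 0.647) and 0.24 ± 0.21 for BAK1 (adjusted p = 0.425). At 6 h the values were 0.03 ± 0.21 and 0.11 ± 0.19. BAX rested on 31 to 332 counts and BAK1 on 69 to 298 counts per library. Single-arm effects of BAX ran from -0.66 ± 0.46 with M-miR-222-5p to 0.42 ± 0.46 with M-miR-512-3p (adjusted p = 0.47 and 0.635).

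BBC3 (ENSG00000105327, chr19:47220822-47232766, minus strand) encodes PUMA, a BH3-only protein that binds all the main survival proteins and is known as a target of p53 and FOXO3. With MC its values at 24 h were 92.8, 134 and 130.0 CPM with DMSO and 344, 185 and 291 CPM with Sorafenib. With M-miR-222-5p they were 74.5, 151 and 134 CPM with DMSO and 410.0, 236 and 429.7 CPM with Sorafenib. With M-miR-512-3p they were 80.8, 62.5 and 56.6 CPM with DMSO and 340.5, 369 and 301 CPM with Sorafenib. Each of the 9 Sorafenib libraries lay above each of the 9 DMSO libraries of that time. In single arms, 13.1% of all genes tested were higher without overlap in MC, 13.7% with M-miR-222-5p and 14.6% with M-miR-512-3p. The share of genes that were so for 9 libraries against 9 was not computed. The mean rise was a log2 fold change of 1.70 ± 0.16, adjusted p = 3.67e-08. It also passed the test in each arm: a log2 fold change of 1.21 ± 0.27, adjusted p = 0.0131 in MC, a log2 fold change of 1.58 ± 0.27, adjusted p = 0.00137 with M-miR-222-5p and a log2 fold change of 2.30 ± 0.28, adjusted p = 9.52e-06 with M-miR-512-3p. The mean effect kept its call without any 1 library (1.61 to 1.80), whereas the MC call was lost without MC DMSO replicate 1 or 3 or MC Sorafenib replicate 1 or 3 (adjusted p up to 0.095).

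Before that, at 6 h, BBC3 in IC stood at 91.0, 129.6 and 71.6 CPM with DMSO and 167, 148 and 93.9 CPM with Sorafenib. With I-miR-200c-3p it stood at 77.6, 57.4 and 67.5 CPM with DMSO and 87.7, 83.5 and 111 CPM with Sorafenib. The Sorafenib values lay above DMSO without overlap with I-miR-200c-3p, as did 8.54% of all genes tested, and overlapped in IC. The mean difference of 0.47 ± 0.16 had an adjusted p of 0.128, and it passed the test without IC DMSO replicate 2 (0.0392) or IC Sorafenib replicate 3 (0.0476), and with no filter on low counts (0.48, adjusted p = 0.0083). Ranked by mean, the 3 Sorafenib groups of 24 h held the top places, at 359 ± 106 CPM for M-miR-222-5p, 337 ± 34.1 CPM for M-miR-512-3p and 273 ± 81.0 CPM for MC (SD, n = 3). These neighbours did not differ beyond the larger SD. The next group, IC with Sorafenib, stood at 136 ± 37.8 CPM, below MC with Sorafenib by more than the larger SD, and the lowest means were those of I-miR-200c-3p with DMSO at 67.5 ± 10.1 CPM and M-miR-512-3p with DMSO at 66.6 ± 12.6 CPM, which did not differ beyond the larger SD.

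BCL2L11 (ENSG00000153094, chr2:111119378-111168444, plus strand) encodes BIM, which binds every main survival protein and can activate BAX and BAK, and is known as a FOXO target held down by ERK signalling. At 6 h its values in IC were 19.8, 25.7 and 17.1 CPM with DMSO and 27.6, 29.9 and 39.0 CPM with Sorafenib. With I-miR-200c-3p they were 17.3, 23.4 and 21.3 CPM with DMSO and 29.5, 33.8 and 45.3 CPM with Sorafenib. Sorafenib was higher without overlap in both arms. At 24 h in MC they were 8.11, 22.6 and 9.70 CPM with DMSO and 36.7, 26.0 and 45.6 CPM with Sorafenib. With M-miR-222-5p they were 7.41, 18.4 and 12.3 CPM with DMSO and 37.6, 38.6 and 50.6 CPM with Sorafenib. With M-miR-512-3p they were 23.4, 14.6 and 16.2 CPM with DMSO and 52.2, 29.2 and 57.7 CPM with Sorafenib. Again no Sorafenib library fell within the DMSO range of its arm, which made BCL2L11 the 1 member that was higher without overlap in all 5 arms. Of all genes tested, 6.63% were higher without overlap in IC, 8.54% with I-miR-200c-3p, 13.1% in MC, 13.7% with M-miR-222-5p and 14.6% with M-miR-512-3p. The share of genes that were so in all 5 arms at once was not computed.

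The mean rise of BCL2L11 was a log2 fold change of 0.71 ± 0.16, adjusted p = 0.0175 at 6 h and a log2 fold change of 1.51 ± 0.22, adjusted p = 1.60e-05 at 24 h. In single arms it passed the test in MC (log2 fold change 1.45 ± 0.38, adjusted p = 0.0375), with M-miR-222-5p (log2 fold change 1.75 ± 0.38, adjusted p = 0.00836) and with M-miR-512-3p (log2 fold change 1.33 ± 0.37, adjusted p = 0.0225). At 6 h the single-arm values were 0.61 ± 0.23 in IC (adjusted p = 0.999) and 0.80 ± 0.22 with I-miR-200c-3p (adjusted p = 0.0647). The 24 h mean call held without any 1 library (1.41 to 1.74). The 6 h mean call was lost without IC DMSO replicate 1 or 3 or IC Sorafenib replicate 3 (adjusted p up to 0.0618), and single-arm calls at 24 h were lost without 1 of 4 libraries in MC (DMSO and Sorafenib replicates 1 and 3, up to 0.225), 1 with M-miR-222-5p (DMSO replicate 1, 0.0586) and 4 with M-miR-512-3p (DMSO replicates 2 and 3, Sorafenib replicates 1 and 3, up to 0.0944). The MC call was also lost on total counts (1.35, adjusted p = 0.0586) and with only the 6 libraries of that arm (1.43, adjusted p = 0.0839). Ranked by mean, the 5 Sorafenib groups of BCL2L11 stood at 32.2 to 46.4 CPM and the 5 DMSO groups at 12.7 to 20.9 CPM, and the step between these sets was the 1 step of 9 that exceeded the larger SD.

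The promoter of BCL2L11 held the FOXO motif GTAAACA. It was searched on both strands in 250 bases before to 50 after the transcript start that RefSeq gives, in promoters (GRCh38.p14) of 8 of the 10 members. MCL1 and BIK had no entry. The window is shown with the motif in capitals because it was found in 3.41% of 27305 promoters and in 1 member, this one.
BCL2L11 promoter: agttactccgGTAAACAcgccagggac
It spans chr2:111120681-111120707 on the plus strand, and the motif begins 223 bases before that RefSeq start, which lies inside the GENCODE gene span given above. The cyclic AMP response element TGACGTCA (1.978% of promoters) and the amino acid response core TGATGNAA (3.673%) were in 0 of the 8 windows, and the E2F motif TTTNGCGC (1.831%) was in that of BCL2L1. The CCAAT box was in 5 of 8 (35.7% of all promoters) and the GC box GGGCGG in 6 of 8 (44.59%). These letters are a description of the window and show no binding.

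PMAIP1 (ENSG00000141682, chr18:59899996-59904305, plus strand) encodes NOXA, a BH3-only protein that binds MCL1 and promotes its degradation. In MC at 24 h it stood at 0.507, 1.21 and 1.47 CPM with DMSO and 3.46, 2.00 and 12.1 CPM with Sorafenib. With M-miR-222-5p it stood at 1.20, 4.53 and 3.82 CPM with DMSO and 7.48, 6.81 and 10.1 CPM with Sorafenib. With M-miR-512-3p it stood at 1.60, 0.906 and 2.68 CPM with DMSO and 8.16, 5.08 and 5.47 CPM with Sorafenib. Sorafenib lay above DMSO without overlap in all 3 arms, and MC with Sorafenib replicate 3 was the highest library. Of all genes tested, 13.1% were higher without overlap in MC, 13.7% with M-miR-222-5p and 14.6% with M-miR-512-3p. In MC, PMAIP1 rested on 4 to 10 counts per library with DMSO and 10 to 82 with Sorafenib. The mean rise was a log2 fold change of 1.88 ± 0.41, adjusted p = 0.00152, and it kept its call without any 1 library (1.55 to 2.07, adjusted p up to 0.00818). No arm passed the test alone with edgeR, at a log2 fold change of 2.47 ± 0.75, adjusted p = 0.0758 in MC, a log2 fold change of 1.37 ± 0.69, adjusted p = 0.286 with M-miR-222-5p and a log2 fold change of 1.81 ± 0.71, adjusted p = 0.106 with M-miR-512-3p. DESeq2 called the MC arm (2.47, adjusted p = 0.0188), as did edgeR without MC Sorafenib replicate 2 (2.90, adjusted p = 0.0277). Without MC Sorafenib replicate 3, the highest library, the MC value was 1.41 (adjusted p = 0.497).

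At 6 h the mean PMAIP1 level with Sorafenib was below that with DMSO in both arms. In IC they were 3.11, 4.32 and 4.89 CPM with DMSO and 2.45, 2.41 and 3.77 CPM with Sorafenib. With I-miR-200c-3p they were 3.28, 3.20 and 5.59 CPM with DMSO and 2.68, 4.57 and 1.55 CPM with Sorafenib. The ranges overlapped in both arms, and the mean difference was a log2 fold change of -0.48 ± 0.37, adjusted p = 0.58. The DMSO groups of 6 h stood at 4.11 ± 0.908 CPM in IC and 4.03 ± 1.36 CPM with I-miR-200c-3p (SD, n = 3). Those of 24 h stood at 1.06 ± 0.499 CPM in MC, 3.18 ± 1.76 CPM with M-miR-222-5p and 1.73 ± 0.892 CPM with M-miR-512-3p.

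The other BH3-only genes did not pass the test at either time. BID (ENSG00000015475, chr22:17734138-17774770, minus strand), whose protein is cleaved by caspase-8 and so links death receptors to mitochondria, was nearest to it. It spanned 21.5 to 45.7 CPM (median 38.8) with DMSO and 29.7 to 56.2 CPM (median 46.7) with Sorafenib at 24 h. The mean effect was a log2 fold change of 0.36 ± 0.16, adjusted p = 0.0961, and it passed the test without M-miR-222-5p DMSO replicate 2 (0.48, adjusted p = 0.0293) or M-miR-512-3p Sorafenib replicate 1 (0.46, adjusted p = 0.0284). BAD (ENSG00000002330, chr11:64269830-64284704, minus strand), whose protein is switched off by phosphorylation, spanned 2.04 to 5.45 CPM (median 3.93) and 0.415 to 7.46 CPM (median 2.44). Its mean effect was -0.31 ± 0.42 at 24 h (adjusted p = 0.623) and -0.24 ± 0.39 at 6 h (adjusted p = 0.826). BIK (ENSG00000100290, chr22:43110750-43129712, plus strand) encodes a BH3-only protein of the endoplasmic reticulum. In MC the BIK values were 0, 0.728 and 1.32 CPM with DMSO and 2.91, 2.40 and 2.36 CPM with Sorafenib. They did not overlap, and 13.1% of all genes tested were higher without overlap in MC. With M-miR-222-5p and M-miR-512-3p the BIK ranges overlapped. The mean effect on BIK was 0.09 ± 0.85 at 24 h (adjusted p = 0.951) and 0.82 ± 0.53 at 6 h (adjusted p = 0.504), with the widest SE of the 10 members at both times.

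Summed by class, the mean share of the survival genes was lower and that of the BH3-only genes higher with Sorafenib in each of the 5 arms (the plot of class shares). With DMSO, MCL1 and BCL2L1 together held 67.9% ± 6.14 of the summed CPM of the 10 members in IC and 58.5% ± 4.98 with Sorafenib (SD, n = 3). The corresponding shares were 75.6% ± 3.69 and 62.4% ± 4.0 with I-miR-200c-3p, and 63.5% ± 8.63 and 54.5% ± 2.99 in MC. They were 65.1% ± 7.69 and 47.3% ± 4.19 with M-miR-222-5p, and 71.1% ± 2.90 and 48.3% ± 4.93 with M-miR-512-3p. The ranges did not overlap with I-miR-200c-3p, M-miR-222-5p or M-miR-512-3p, and overlapped in IC and MC. The 6 BH3-only genes held between 19.5% ± 2.09 (I-miR-200c-3p) and 29.6% ± 9.73 (MC) with DMSO, and up to 48.1% ± 4.23 with Sorafenib (M-miR-222-5p). Most of that was BBC3, at 37.4% ± 5.30 of the members' sum in that group against 18.8% ± 7.19 with DMSO. In CPM, the mean sum of MCL1 and BCL2L1 with DMSO and Sorafenib at 6 h was 434 and 361 in IC, and 547 and 367 with I-miR-200c-3p. At 24 h this sum was higher with Sorafenib, at 391 ± 106 and 480 ± 84.7 in MC (SD, n = 3). It was 424 ± 75.6 and 442 ± 44.4 with M-miR-222-5p, and 424 ± 23.2 and 467 ± 72.4 with M-miR-512-3p. The lower survival share at 24 h was thus no lower level. Shares of a fixed sum move against each other, and neither shares nor sums were tested.

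**Figure D3:**
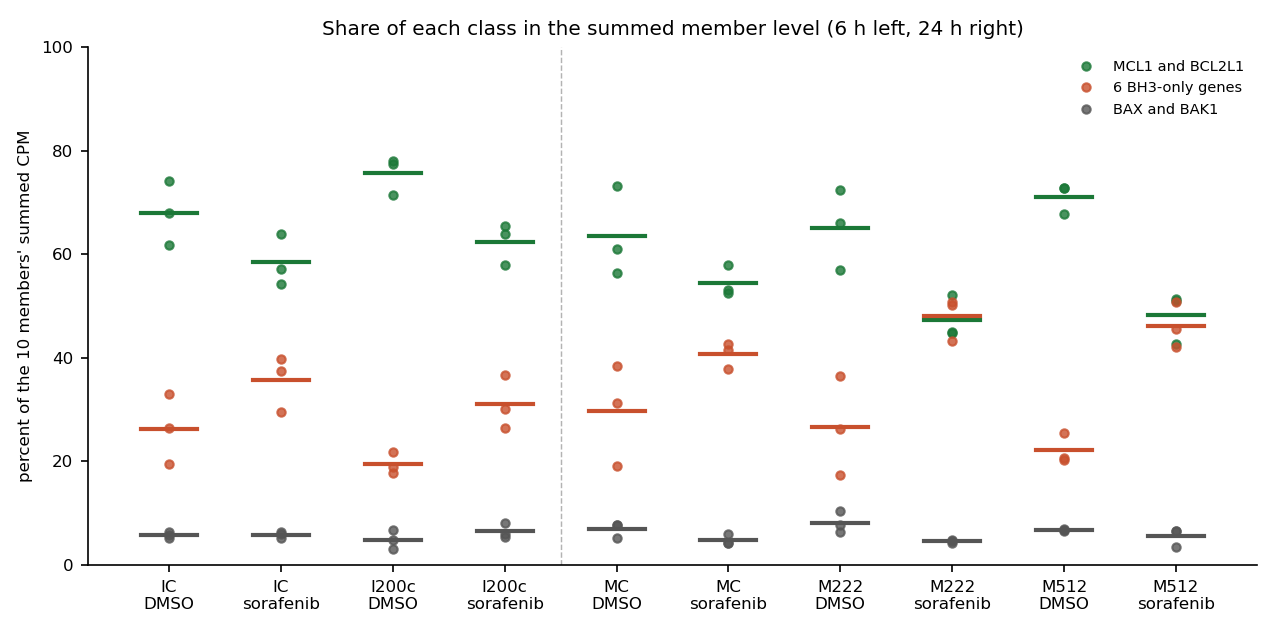
Share of each class in the summed CPM of the 10 members (vertical axis, percent) in the 10 groups (M222 is M-miR-222-5p, and likewise for I200c and M512), with 1 point per library and lines at the means of 3. The survival genes MCL1 and BCL2L1 stand between 63.5% and 75.6% with DMSO and between 47.3% and 62.4% with Sorafenib as group means, and the BH3-only share reaches 48.1% with M-miR-222-5p.

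The difference between the 2 times was tested over all 30 libraries, as the 24 h mean effect minus the 6 h mean effect. It passed the test for 3 members, MCL1 (log2 fold change 1.10 ± 0.23, adjusted p = 0.0017), BBC3 (log2 fold change 1.23 ± 0.24, adjusted p = 0.000791) and PMAIP1 (log2 fold change 2.37 ± 0.57, adjusted p = 0.00591), all toward higher values at 24 h. Of 13800 genes tested, 9.4% were called, 5.34% in that direction and 4.06% in the other. For MCL1 the means had opposite signs at the 2 times. For BBC3 both means were above 0, and for PMAIP1 the 6 h mean was below 0. Neither of these 6 h values passed edgeR's test (adjusted p = 0.128 for BBC3 and 0.58 for PMAIP1). BCL2L11 differed by 0.81 ± 0.30 (adjusted p = 0.0801), and passed the test without MC DMSO replicate 2 (0.99, 0.0188), M-miR-222-5p DMSO replicate 2 (0.91, 0.0458) or M-miR-512-3p Sorafenib replicate 2 (0.89, 0.0384), and with no filter on low counts (0.80, adjusted p = 0.0432). The 3 calls were kept in each of the 30 fits without 1 library. With only the transfection controls IC and MC, 0 of the 3 passed edgeR's test, at 0.98, adjusted p = 0.124 for MCL1, 0.71, adjusted p = 0.402 for BBC3 and 2.96, adjusted p = 0.188 for PMAIP1, in the same directions.

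No contrast of an oligonucleotide with its control passed the test for a member. Over the 6 contrasts, made in DMSO and in Sorafenib, 0 of 60 pairs of member and contrast were called by edgeR and 0 by DESeq2. An unadjusted p below 0.05 (edgeR) was found for 4 of the 60 pairs. Among all 12738 genes it was found for 667 with I-miR-200c-3p in DMSO and 273 in Sorafenib. Among 13244 genes the numbers in DMSO and Sorafenib were 737 and 800 with M-miR-222-5p, and 1385 and 1465 with M-miR-512-3p. Of all genes, 0.0157% were called with I-miR-200c-3p in DMSO and 0% in Sorafenib, 0% with M-miR-222-5p in either, and 0.634% and 0.355% with M-miR-512-3p in DMSO and Sorafenib. PMAIP1, which holds the miR-200c-3p match shown above, differed by -0.01 ± 0.52 with the inhibitor in DMSO and by 0.04 ± 0.52 in Sorafenib. MCL1, with the miR-222-5p match, differed by -0.09 ± 0.24 with the mimic in DMSO and by -0.32 ± 0.24 in Sorafenib. BBC3 made up 3 of the 4 pairs with an unadjusted p below 0.05. Its log2 difference was -0.52 ± 0.22 in DMSO (adjusted p = 0.922) and -0.52 ± 0.22 in Sorafenib (adjusted p = 1) for I-miR-200c-3p against IC, and -0.84 ± 0.27 in DMSO for M-miR-512-3p against MC (adjusted p = 0.192). The fourth was PMAIP1 with M-miR-222-5p in DMSO (1.55 ± 0.75, adjusted p = 0.891).

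The difference in the Sorafenib effect between an oligonucleotide and its control did not pass the test for any member. Of 30 such interactions, 0 were called by edgeR and 0 by DESeq2. The share of all genes called by edgeR was 0.00755% for M-miR-512-3p and 0% for the other oligonucleotides. An unadjusted p below 0.05 (edgeR) was found for 1 of the 30. Among all genes it was found for 413 of 12738 with I-miR-200c-3p, 260 of 13244 with M-miR-222-5p and 667 of 13244 with M-miR-512-3p. The 1 pair was BBC3 with M-miR-512-3p, whose Sorafenib effect was larger than that in MC by 1.09 ± 0.38 (adjusted p = 0.871). The number of members called by arm was 0 in IC, 1 with I-miR-200c-3p, and 2 in each of the 3 arms at 24 h. Of all genes, 0.0393% were called in IC, 2.28% with I-miR-200c-3p, 2.6% in MC, 4.38% with M-miR-222-5p and 9.96% with M-miR-512-3p. In IC, 2 of 10 members, BCL2L11 and BBC3, had an unadjusted p below 0.05 (edgeR), as had 481 of 12738 genes, and DESeq2 called 0 members.

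Partners of the family were followed in lists chosen with earlier results of these data known (the plot of gene lists). Of all genes, 13.4% rose and 12.4% fell in the mean effect at 24 h, and 1.15% rose and 1.73% fell at 6 h, and the counts below stand beside these shares. At 24 h, of 13 other BCL2 family genes, 7 passed the filter, 0 rose and 2 fell: BOK, an effector relative of BAX (-0.99 ± 0.19), and BCL2L12 (-0.47 ± 0.12), both as log2 fold change ± SE. Among 20 genes of the apoptosome, caspases and their inhibitors, BIRC3, an inhibitor of apoptosis protein, rose (2.01 ± 0.46), while BIRC5, the mitotic protein survivin, and DFFA, the inhibitor of the apoptotic nuclease, fell (-0.51 ± 0.11 and -0.62 ± 0.15). None of the 7 listed caspases was called, and beyond the 3 genes named no gene of this list had an unadjusted p below 0.05. Of 12 death receptor genes tested, 3 rose, TNFRSF10B (0.70 ± 0.14), which encodes the TRAIL receptor DR5, TNFRSF10D (0.51 ± 0.15), a decoy receptor, and CFLAR (0.33 ± 0.11), an inhibitor of caspase-8 activation. The ligand TNFSF10 (TRAIL) and the adaptor FADD fell (-1.92 ± 0.33 and -0.92 ± 0.17). Among 11 channel partners and regulators of MCL1 turnover, 3 rose: FBXW7 (0.66 ± 0.14) and MARCHF5 (0.60 ± 0.15), both ubiquitin ligase components, and VDAC2 (0.55 ± 0.11), which docks BAK at mitochondria. The median over each of these 4 lists lay between -0.20 and -0.01.

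Of 14 transcription factors known to act on the family, 10 rose and 0 fell at 24 h, where 13.4% of all genes rose, and their median was 0.98. This list too was chosen with earlier results of these data known. The largest rises were ATF3 (3.22 ± 0.31), JUN (2.98 ± 0.26), DDIT3 (2.36 ± 0.22), which encodes the stress factor CHOP, and CEBPB (1.95 ± 0.20). At 6 h, DDIT3 (1.35 ± 0.18), JUN (0.78 ± 0.13) and FOXO3 (0.63 ± 0.15) had risen, 3 of 14 with 0 lower, where 1.15% of all genes rose. Among the death receptor genes at 6 h, 0 of 12 rose and 3 fell, where 1.73% of all genes fell: TNFRSF10D (-1.15 ± 0.22), RIPK1 (-0.69 ± 0.15), a kinase of the receptor complexes, and TNFRSF10B (-0.58 ± 0.13). TNFRSF10B and TNFRSF10D thus had opposite signs at the 2 times, as MCL1 did, with differences of 1.29 ± 0.20 and 1.66 ± 0.26 (adjusted p = 5.20e-05 and 5.86e-05). In the other 3 lists 0 genes were called at 6 h. There edgeR gave unadjusted p below 0.05 for 2 of 7 other family genes, 2 of 20 apoptosome genes and 1 of 11 channel and turnover genes. It did so for 1962 of all 12738 genes tested.

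**Figure D4:**
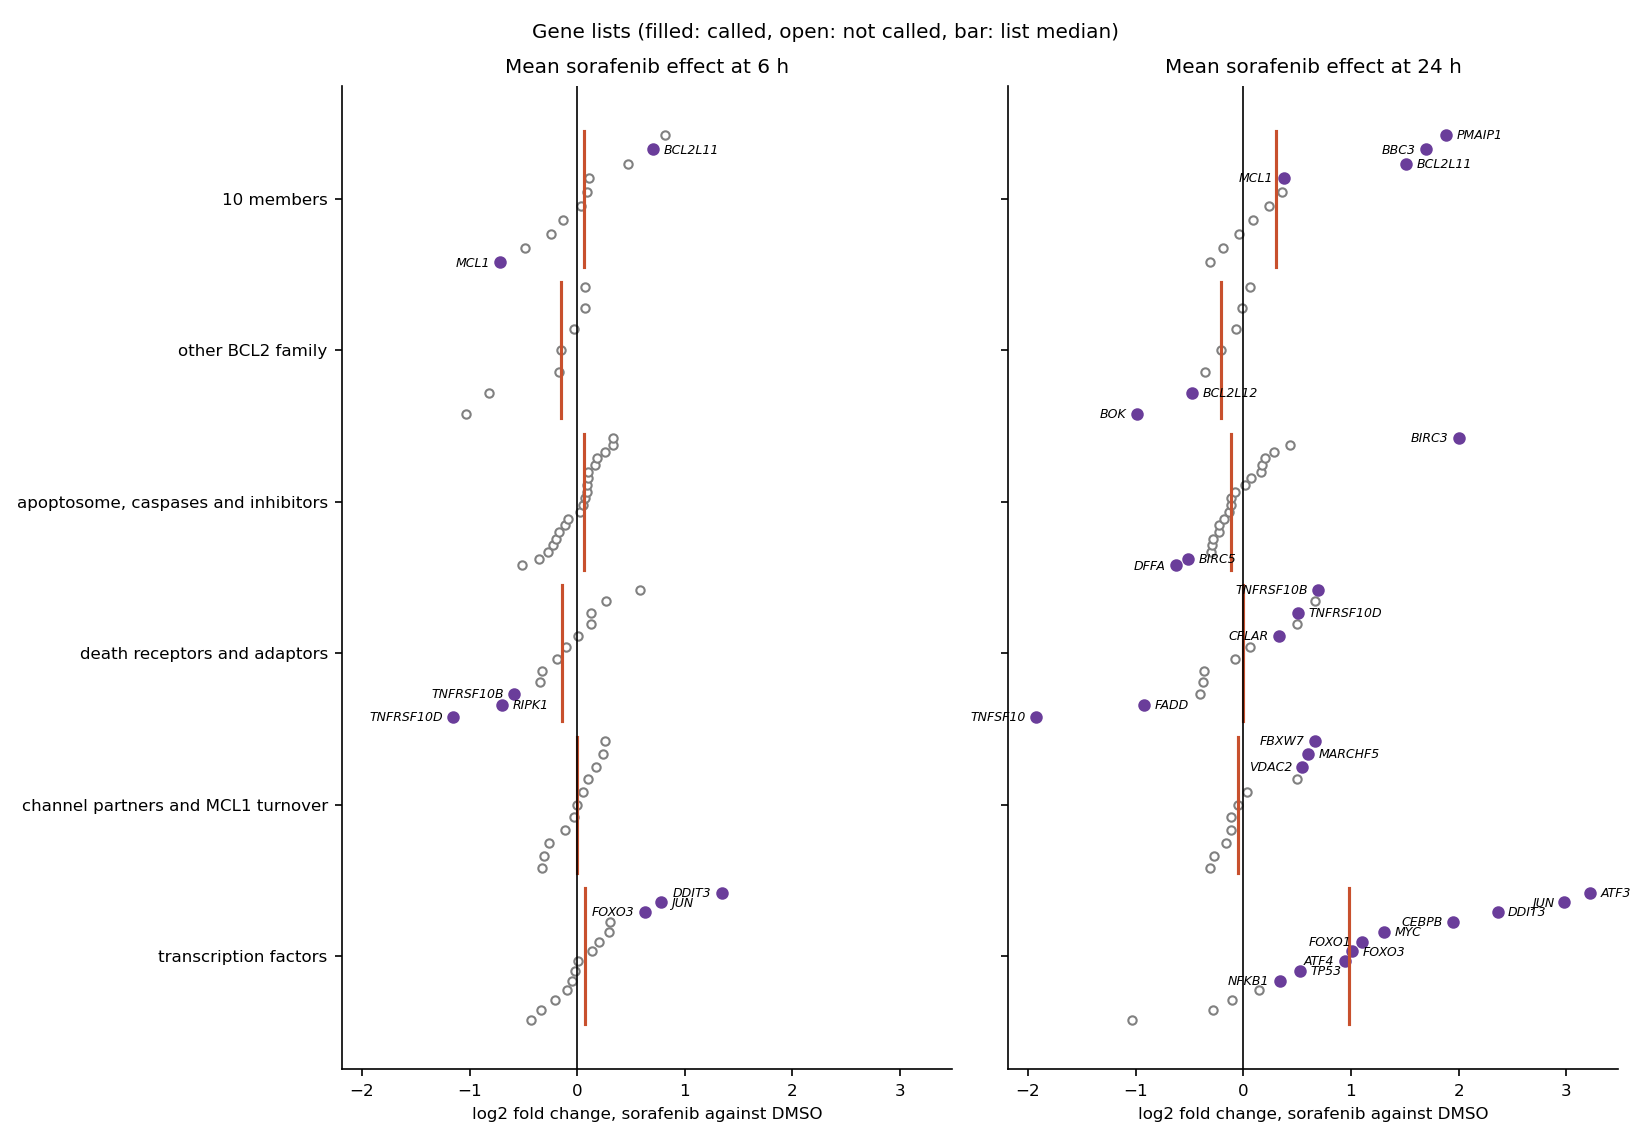
Mean Sorafenib effect at 6 h (left) and 24 h (right) as a log2 fold change (horizontal axis) for each tested gene of 6 lists (vertical axis); filled points had an adjusted p below 0.05 and are named, open points did not, and the orange bars mark list medians. The transcription factors have a median of 0.98 at 24 h, and the 10 members one of 0.30.

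Over the 10 group means of log2 CPM, the genes whose pattern was most like that of BBC3 among 13799 searched were NMD3 (Pearson r = 0.987), PER1 (0.975) and LURAP1L (0.975). For BAD, the member with the smallest p among those with a mean below 0 at 24 h, they were POLR1G (0.919), RPA2 (0.915) and VCP (0.912). The 10 points share libraries and time, and these values are a description.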

How the data were processed

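Poly(A) RNA of HepG2 cells was read as 3′ tags in 30 libraries (10 groups, 3 replicates each, grouped by the sample labels). The authors trimmed the reads, mapped them to GRCh38 with STAR and counted them per gene with HTSeq. Gene annotation, strand setting and possible UMI use are not given in the sources used here, so counts may include reads of genes that overlap a member. On the other strand these were ABALON and BCL2L1-AS1 at BCL2L1, MIR4435-2HG at BCL2L11, GGNBP1 at BAK1 and GPR137 at BAD. Also on the other strand were MIR3190 at BBC3, and ADAMTSL4 and ENSG00000289457 at MCL1. On the member's own strand they were ADAMTSL4-AS1, RN7SL473P and RN7SL600P at MCL1, MIR3191 at BBC3 and MIR3198-1 at BID. The deposited values used were raw read counts; a deposited table of the authors' normalized counts was not used. Of 60199 rows, 92 named no gene and held 3 counts in all; they were left out. Total counts per library were 3938764 to 9657063. No 2 replicates agreed within sampling noise (chi-square per degree of freedom 4.54 to 66.2 over 30 pairs).

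Counts were tested with edgeR 4.0.16 in R 4.3.3 (TMM factors, filterByExpr, quasi-likelihood F test, two-sided, 1 coefficient per group), in 1 fit of the 12 libraries of 6 h, 1 of the 18 of 24 h and 1 of all 30 for the difference between times. P-values were adjusted by Benjamini-Hochberg over all genes tested, and genes below 0.05 were called. The study used DESeq2, which was run here (1.42.0) as an alternative. SE is the absolute log2 fold change divided by the square root of F. On data simulated from the real means, 89% of genes changed by 1 on the log2 scale were recovered in the 6 h mean effect and 77% in the 24 h mean effect, with 100% at a change of 2. The simulation gave every gene the same biological coefficient of variation (0.241 at 6 h and 0.356 at 24 h). Genes with low expected counts were not changed in it, and single-arm tests were not tried. These percentages therefore do not carry over to single arms or to members with a wider spread, such as BIK and PMAIP1 (SE 0.85 and 0.41 at 24 h).

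All 10 members are named. From the other lists the genes called at 6 h or 24 h are named, at most 4 per direction and time, and the most similar genes are the 3 with the highest Pearson r. The members and lists were chosen with earlier results of these data known. Alternatives were DESeq2, RLE factors, total counts, no filter, a replicate block, only the 6 libraries of an arm, only the transfection controls, and each library left out in turn. Sequences came from RefSeq and GENCODE 44 on GRCh38.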

Additional observations from a re-analysis of the deposited data

Results flagged for a closer look

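The Sorafenib effect at 24 h differed from that at 6 h for 3 members, by the test of the difference itself over 30 libraries: 1.10 for MCL1, 1.23 for BBC3 and 2.37 for PMAIP1 on the log2 scale, each higher at 24 h. Adjusted p was 0.0017, 0.000791 and 0.00591 in that order (edgeR). Of 13800 genes tested, 9.4% were called, 5.34% of them toward higher values at 24 h as a share of all genes. With only the transfection controls IC and MC, 0 of the 3 passed edgeR's test (adjusted p = 0.124, 0.402 and 0.188 in the same order). At 6 h the cells had received an inhibitor or its control and at 24 h a mimic or its control, so time and oligonucleotide cannot be told apart. PMAIP1 with DMSO stood at 4.11 ± 0.908 CPM in IC and 4.03 ± 1.36 CPM with I-miR-200c-3p at 6 h (SD, n = 3). At 24 h it stood at 1.06 ± 0.499 CPM in MC, 3.18 ± 1.76 CPM with M-miR-222-5p and 1.73 ± 0.892 CPM with M-miR-512-3p. These differences at baseline were not tested.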

How the results depend on the processing

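No member's fold change changed sign among the 16 called values under any alternative tried. Over the settings other than omissions, 49 counts of members stayed within 1.5 times and 7 did not. With I-miR-200c-3p the count of 1 became 2 with DESeq2 and 2 with no filter, where BCL2L11 joined, and 0 with only the 6 libraries of that arm, where MCL1 was lost (-1.02, adjusted p = 0.0808). In MC the count of 2 became 1 on total counts and 1 with only its 6 libraries, where BCL2L11 was lost (1.35, adjusted p = 0.0586 and 1.43, adjusted p = 0.0839). The oligonucleotide contrasts went from 0 to 1 with no filter (BBC3, M-miR-512-3p in DMSO, -0.83, adjusted p = 0.0199). With only the transfection controls the time difference went from 3 to 0, a fit with fewer samples. Except where the construction leaves fewer samples, the cause was not tested. With 1 library left out, the number of members called ranged from 0 to 0 in IC, 0 to 2 with I-miR-200c-3p, 0 to 3 in MC, 1 to 2 with M-miR-222-5p, 1 to 2 with M-miR-512-3p, 0 to 3 for the mean effect at 6 h, 3 to 5 for that at 24 h, 3 to 4 for the time difference, and 0 to 0 for oligonucleotide contrasts and for interactions. Total counts shifted the median of all genes by -0.13 at 24 h and by -0.03 at 6 h relative to TMM.

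The main fits did not pair the samples by replicate number. The deviations of same-numbered DMSO and Sorafenib libraries correlated between -0.119 and 0.211 over 15 pairs, 4 of them above 0.1. Pairs with different numbers ran from -0.175 to 0.139. Of the 15 DMSO libraries, 9 correlated best with their own number, a hint from the data only. Whether a replicate number marks a shared batch was not tested. A replicate block left each count of members unchanged, with 2 called at 6 h and 4 at 24 h.

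PMAIP1, BAD and BIK rest on at most 82 counts per library, and how far this bears on the missing calls of BAD and BIK was not tested.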
